A study of Danio rerio with 8 samples.

Results

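The genes described here are those of the splicing machinery and of the heterogeneous nuclear ribonucleoproteins (hnRNPs), in skin cells of adult zebrafish. They were chosen by symbol alone, as every gene whose name begins with srsf, sf3a, sf3b, snrp, snrnp, hnrnp or prpf, or with lsm followed by a digit. This rule found 91 of the 19914 genes in the table, with 90 different symbols, because hnrnpa0l stands for 2 gene identifiers. The cells came from the flank dermis of untreated adult fish that carried both pnp4a:palmmCherry and pnp4a:nlsEos. These reporters are driven by the promoter of pnp4a (purine nucleoside phosphorylase 4a), a gene strongly active in iridophores, the guanine crystal forming pigment cells. Stripe (dark) and interstripe (light) skin was dissected and sorted separately for high fluorescence of both reporters. Of the plates collected from each, 4 were selected for sequencing, and cells from 2 fish were pooled in each sort. All plates share the untreated state and both transgenes, and the study's methods list a wild-type stock, WT(ABb), and the reporter lines, without a separate strain for the reporter fish. The authors grouped 646 cells into clusters c1 to c5 and deposited values per cluster, so that plates and fish could not be separated and no test across them was possible.

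Splicing removes introns from pre-mRNA. The spliceosome is built from small nuclear ribonucleoproteins (snRNPs), in which an RNA is held by a ring of Sm or LSm proteins, and the U2 snRNP finds the branch point of the intron with its SF3a and SF3b complexes. SR proteins, which carry a domain rich in arginine and serine, usually bind exons and favour their inclusion, while many hnRNPs coat nascent transcripts and can repress splice sites. These genes are active in most cell types and are widely used across tissues, so that in pigment cells they form part of the general machinery of gene expression.

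The groups compared were c4 (82 cells) and c2 (176 cells), each against c1, c3 and c5 as one pool (388 cells), and c5 (72 cells) against c3 (122 cells), with 194 cells in c1. By the authors' account, c5 came mostly from stripe skin, c3 mostly from interstripe skin, and c1 from both. Each value is the natural log of a corrected count plus 1, where the corrected count is a model's count of transcripts at one common depth. The share of cells with a value above 0 carries an exact Clopper-Pearson 95% interval, which covers counting error only, and 3 cells would be 3.66% of c4, 1.70% of c2, 4.17% of c5, 2.46% of c3 and 1.55% of c1. The SDs given with means are over cells of 1 cluster, and cells are not replicates of a condition. The clusters were drawn from these same values, so every difference between them is a description.

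The cell type labels were checked against markers. The summed mean of 5 iridophore markers (gpnmb, pnp4a, alx4a, alx4b and tfec) was 6.42 in c4, 5.03 in c2, 8.32 in c5, 10.0 in c3 and 9.40 in c1, with none of the 5 at 0 in any cluster. Xanthophore markers summed to 1.03 in c4 and 1.32 in c2, against 0.217 in c5, 0.232 in c3 and 0.289 in c1, with pax7b and csf1ra of the 7 at 0 in c4 and none at 0 in c2. Dermal fibroblast markers summed to 1.40 in c4 and 0.926 in c2, against 0.345 in c5, 0.814 in c3 and 0.451 in c1. Keratinocyte markers summed to 0.510 in c4 and 0.295 in c2, against 0.128 to 0.165 in the other 3 clusters. The 4 endothelial markers summed to 0.291 in c4, 0.179 in c2 and 0.0521 to 0.135 in the others, and none was at 0 in any cluster. Immune markers lay between 0.249 (c3) and 0.464 (c2), melanophore markers between 0.0866 (c5) and 0.328 (c3), and proliferation genes between 0.457 (c2) and 1.03 (c4). Found in the table were 7 of 7 xanthophore, 6 of 7 melanophore, 6 of 7 keratinocyte, 6 of 6 fibroblast, 5 of 6 immune and 10 of 10 proliferation genes, and in c5 mitfa, tyrp1b and pmela, all melanophore markers, and krt5 and epcam, both keratinocyte markers, were at 0. Thus c1, c3 and c5 held the higher iridophore marker levels, and markers of several other cell types were higher in c4 and c2. The part of this in the differences below was not tested.

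Most splicing genes were found in few cells. Of the 91 members, 24 were found in at least 10% of all cells, 22 in 5% to under 10% and 45 in under 5%. A total of 77 were found in every cluster and 14 were missing from at least 1. None was at 0 in c1, while 10 were at 0 in c4, 5 in c5, 3 in c3 and 2 in c2. For a member at 0 the exact interval reached up to 4.40% in c4, 2.07% in c2, 4.99% in c5 and 2.98% in c3. The minor spliceosome genes snrnp25 and snrnp48, found in 5 and 7 cells in all, were at 0 in each of c4, c5 and c3. The order of shares is an order of detection and not of transcript level. A share counts the cells with a value above 0, whatever the size of that value.

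SR proteins were among the most often detected members, with 7 of 16 in at least 10% of cells and a median share of 7.20%. The gene with the largest share of all was srsf5a (ENSDARG00000029818), which encodes an SR protein of the nuclear speckles, found in 213 of 646 cells (33.0%). It was found in 65.9% of c4 cells (interval 54.6 to 76.0%), 27.8% of c2 (21.4 to 35.1%), 31.9% of c5 (21.4 to 44.0%), 31.1% of c3 (23.1 to 40.2%) and 25.3% of c1 (19.3 to 32.0%). Its mean over all cells was 0.83 ± 0.93 in c4, 0.41 ± 0.90 in c2, 0.78 ± 1.37 in c5, 0.73 ± 1.27 in c3 and 0.69 ± 1.32 in c1 (SD over cells). The shares of c2, c5, c3 and c1 thus overlapped in their intervals, that of c4 lay above them, and the mean was lowest in c2. Next came srsf3b (ENSDARG00000059360), whose mammalian counterpart also takes part in mRNA export, in 56.1% of c4, 19.9% of c2, 20.8% of c5, 24.6% of c3 and 18.6% of c1 cells. Also above 10% of all cells, srsf7a (ENSDARG00000035325), another SR protein with an export role in mammals, was found in 42.7% of c4, 11.9% of c2, 16.7% of c5, 17.2% of c3 and 13.4% of c1 cells. As for srsf5a, c4 came first for both, with intervals that overlapped among c5, c3 and c1. The least detected SR gene was srsf10b, in 7 cells and at 0 in c2 and c5.

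The hnRNPs were the largest class, with 24 genes, of which 11 were in at least 10% of cells (median share 6.73%). The most often detected was hnrnpa0l (ENSDARG00000036161), a relative of the AU-rich element binding protein hnRNP A0 of mammals, in 187 cells (28.9%). Its share was 58.5% in c4, 26.7% in c2, 26.4% in c5, 23.0% in c3 and 23.2% in c1, and its mean was 0.70 ± 0.95 in c4, 0.44 ± 0.98 in c2, 0.88 ± 1.60 in c5, 0.56 ± 1.20 in c3 and 0.63 ± 1.28 in c1. Here c2 was level with the iridophore clusters by share and below them by mean. The second identifier with this symbol, ENSDARG00000076380, is listed as gzf1 in the reference names, was seen in 15 cells and was at 0 in c4. The A/B-type genes hnrnpaba (ENSDARG00000007960) and hnrnpabb (ENSDARG00000099865) were found in 149 and 147 cells, and hnrnpub (ENSDARG00000004735), whose mammalian counterpart binds chromatin and nuclear RNA, in 129. Of the other hnRNPs, hnrnpd, whose mammalian counterpart AUF1 promotes decay of AU-rich mRNAs, was found in 102 cells. At the low end, hnrnpa3 was in 6 cells and at 0 in c4 and c5.

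Core snRNP genes were detected less often. Among the 9 genes of SF3a and SF3b, 3 were in at least 10% of cells, namely sf3b2 (ENSDARG00000018049, 103 cells), sf3b1 (ENSDARG00000056138, 97 cells), the largest SF3b subunit, and sf3b6 (ENSDARG00000009753, 76 cells), the small subunit that lies near the branch point adenosine. The 3 SF3a genes were each found in 32 to 40 cells. Only snrpb (ENSDARG00000011125), an Sm ring protein, reached 10% among 11 snrp genes, with 66 cells, and none of 7 snrnp genes or 13 prpf genes did. The highest of the snrnp genes was snrnp70 (ENSDARG00000077126), the protein of U1 that binds its RNA, in 55 cells. Its share was 18.3% in c4, 3.41% in c2, 4.17% in c5, 9.84% in c3 and 9.79% in c1, so that it was nearly the same in c3 and c1 and lower in c2 and c5. The c5 share rests on 3 cells, and its interval (0.868 to 11.7%) contained the shares of c3 and c1. Among 11 LSm genes lsm12b (ENSDARG00000109510), which encodes an LSm-domain protein that is not a subunit of the ring on U6, led with 162 cells, and lsm7 (ENSDARG00000058328), which encodes a ring subunit, followed with 70.

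**Figure D1:**
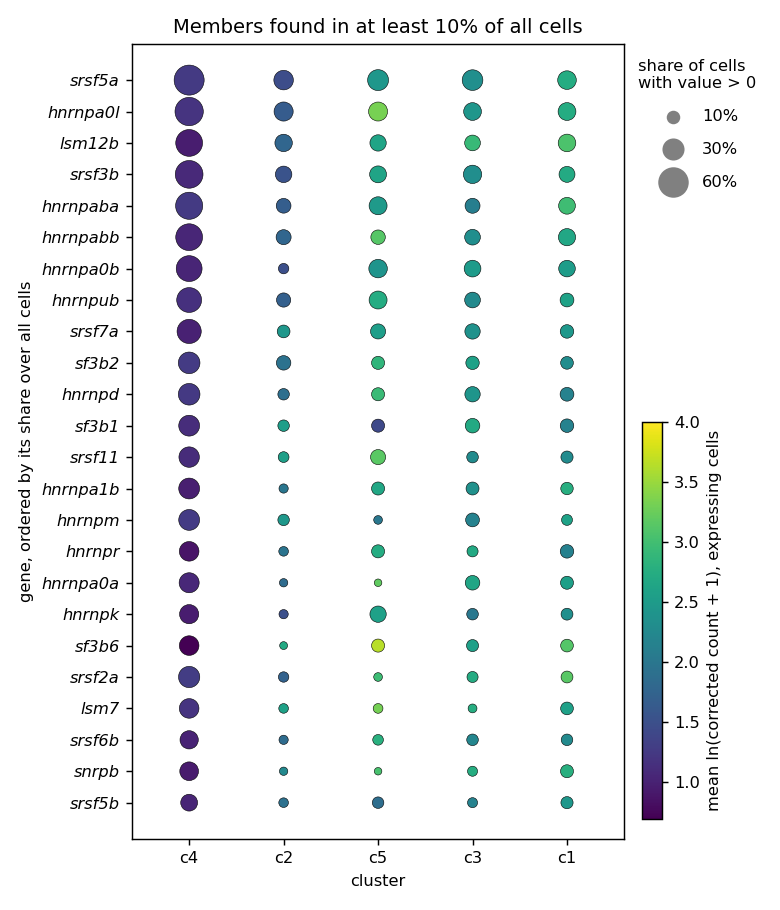
Share and level of the 24 members that reached 10% of all cells. Rows are genes ordered by share over all cells, columns are clusters, the area of a dot is the share of cells with a value above 0 and its colour the mean natural log of the corrected count plus 1 over those cells. The c4 column has the largest dots and the darkest colours in every row, as for srsf5a with 65.9% of cells and a mean of 1.26 per expressing cell.

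To set the members against the number of genes found per cell, both were summed per cluster. A c4 cell had a value above 0 for 12.8 members on average, a c2 cell for 4.67, a c5 cell for 7.04, a c3 cell for 6.62 and a c1 cell for 6.81. All genes together numbered 1395 per cell in c4, 739.6 in c2, 815.0 in c5, 846.1 in c3 and 788.8 in c1. Members were therefore 0.919% of the genes found in c4 (interval 0.865 to 0.976%), 0.631% in c2 (0.589 to 0.676%), 0.864% in c5 (0.791 to 0.942%), 0.783% in c3 (0.730 to 0.838%) and 0.864% in c1 (0.818 to 0.912%). The c2 interval lay below the other 4, which overlapped in part. These intervals treat each gene found in each cell as an independent draw. Genes found in the same cell share its depth, so the intervals are too narrow. When summed means were used in place of genes found, members made up 0.753% in c4, 0.732% in c2, 1.02% in c5, 0.906% in c3 and 1.04% in c1, so that c4 was highest by the one measure and next to lowest by the other, and c2 was lowest by both.

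**Figure D2:**
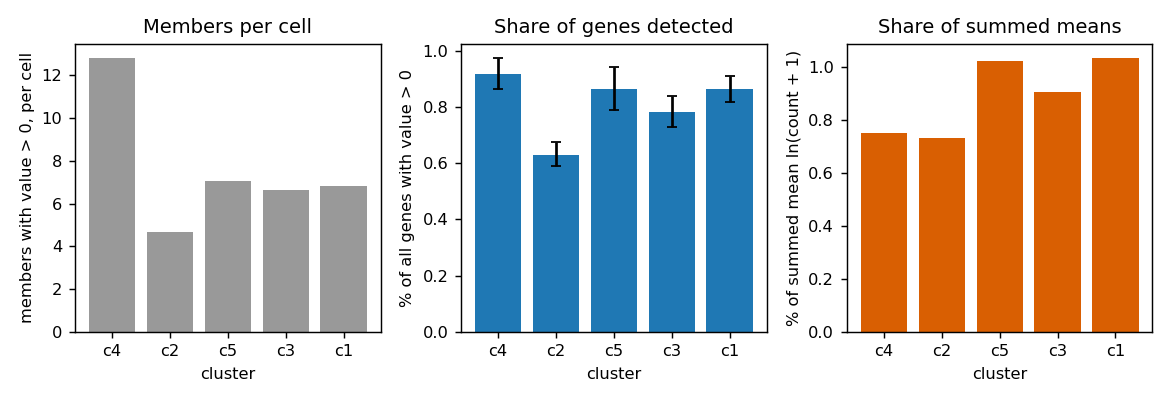
Members per cell by cluster, on 3 scales. The left panel gives members with a value above 0 per cell, the middle panel their percent of all genes found with exact 95% intervals, and the right panel their percent of the summed means, with bars from 0 and clusters in the order c4, c2, c5, c3, c1. The c2 bar is lowest in all 3 panels, and the c4 bar is highest in the left and middle panels and 0.753% in the right one. The intervals treat each gene found in each cell as an independent draw and are too narrow.

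Of 2 comparison families, 1 had the same highest and lowest cluster as the members and 1 did not. Proteasome subunits, another housekeeping family, were 0.516% of the genes found in c4 and 0.298% in c2, against 0.496% in c5, 0.447% in c3 and 0.439% in c1, which is the order of the members at both ends. Ribosomal protein genes ran the other way, with 4.98% in c4 and 7.08% in c2, against 5.69% in c5, 6.15% in c3 and 6.10% in c1. By summed means the ribosomal protein genes made up 5.33% in c4 and 8.42% in c2, against 7.97% in c5, 8.78% in c3 and 8.96% in c1, so that c4 was lowest by both measures and c2 was highest only by genes found.

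Between c5 and c3, which differ in the skin band that most of their cells came from, few splicing genes differed. A difference of at least 0.25 in the mean over all cells was taken as a difference, among genes found in at least 10% of all cells. Of 24 members, 3 were higher in c5 and 1 was lower, beside 14.8% of all 1467 genes that were higher and 13.4% that were lower. Among the 1101 genes whose shares lay in the range of the members, 11.5% were higher and 8.36% were lower. The members' count of higher genes was thus close to the background and that of lower genes was under it. The median difference was 0.03 over the members and 0.01 over all 1467 genes. Of the members 16 were above 0 and 8 below, beside 774 and 693 of all genes.

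The 3 members that were higher in c5 were hnrnpa0l, srsf11 and hnrnpk. The c5 minus c3 difference of hnrnpa0l was 0.32, while its shares of 26.4% in c5 (16.7 to 38.1%) and 23.0% in c3 (15.8 to 31.4%) overlapped, and the mean per expressing cell was 3.32 in 19 cells of c5 and 2.43 in 28 cells of c3. Its difference therefore lay mostly in the level per expressing cell. For srsf11 (ENSDARG00000098574), an SR-related protein, the mean was 0.53 ± 1.30 in c5 and 0.22 ± 0.83 in c3, a difference of 0.30, with shares of 16.7% (8.92 to 27.3%) and 9.84% (5.19 to 16.6%) and 12 expressing cells in each. For hnrnpk (ENSDARG00000018914), which binds C-rich RNA and DNA, the mean was 0.50 ± 1.15 in c5 and 0.20 ± 0.72 in c3, also a difference of 0.30, with shares of 19.4% (11.1 to 30.5%) and 9.84% (5.19 to 16.6%). In both genes the c1 mean, 0.25 for srsf11 and 0.24 for hnrnpk, lay close to that of c3. Just under the threshold, hnrnpaba and hnrnpub both had a difference of 0.24.

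The member that was lower in c5 was hnrnpa0a (ENSDARG00000089302), another hnRNP A0 gene. In c5, 3 of 72 cells had it (4.17%, 0.868 to 11.7%), and in c3 19 of 122 cells (15.6%, 9.64 to 23.2%), with means of 0.13 ± 0.65 in c5 and 0.41 ± 1.02 in c3, a difference of -0.28. The genes hnrnpa0a and hnrnpa0l thus stood in opposite directions between the same clusters, while hnrnpa0b differed by 0.09. The next lowest differences were -0.24 for sf3b1, whose share was 12.5% in c5 and 15.6% in c3, and -0.19 for hnrnpm, an hnRNP that regulates splice site choice in mammals, at 5.56% and 13.9%. After these came srsf2a and snrpb, both at -0.08, which is well inside the threshold. For all 24 members the intervals of the shares in c5 and c3 overlapped, while they did not for 7.09% of all 1467 genes.

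Among the 67 members under 10% of cells, 2 were higher in c5 and none was lower, beside 0.266% of all 18447 genes under 10% that were higher, most of which were found in far fewer cells than these 2. The larger difference, 0.38, was that of snrpd2 (ENSDARG00000040440), an Sm ring protein, in 11 of 72 c5 cells and 5 of 122 c3 cells, named after its values were seen. Another gene seen in few cells, sf3a1 (ENSDARG00000041887), a subunit of SF3a, was also singled out after its values were seen. A value was present in 11 c5 cells (15.3%, 7.88 to 25.7%) and 2 c3 cells (1.64%, 0.199 to 5.80%), with 5 in c4, 7 in c2 and 15 in c1. Overlap of intervals was not counted over genes under 10% of cells, so nothing is read from these intervals. Both snrpd2 and sf3a1 rest on 11 or fewer cells in each cluster compared.

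**Figure D3:**
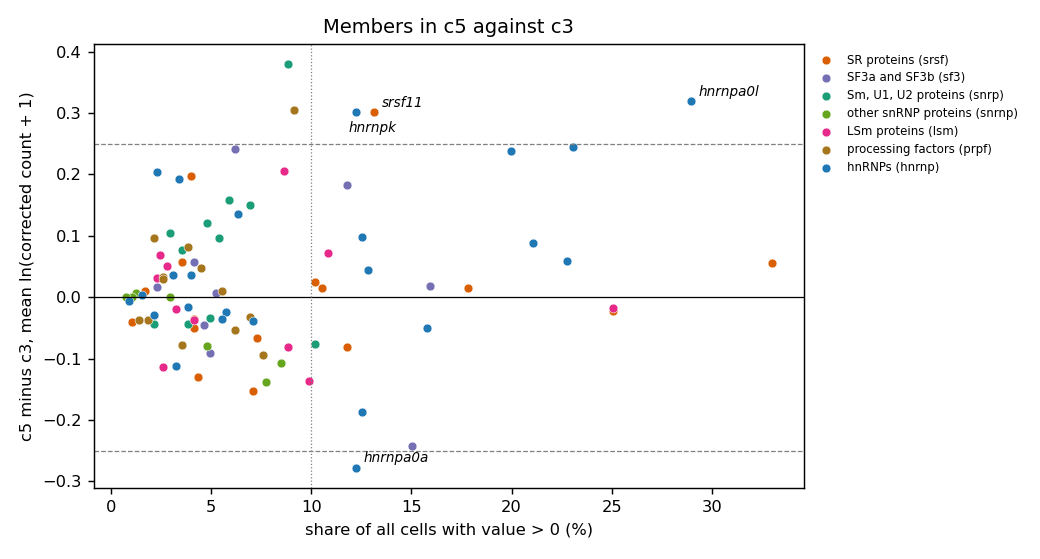
Difference between c5 and c3 for the 91 members. Each point is a gene, the x axis is its share of all cells in percent, the y axis is the c5 minus c3 difference of the mean natural log of the corrected count plus 1, dashed lines mark 0.25 in each direction and the dotted line marks 10% of cells. To the right of the dotted line 3 points lie above the upper line and 1, hnrnpa0a at -0.28, lies below the lower line.

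Within the clusters with high iridophore markers, the highest mean among c5, c3 and c1 was in c5 for 12 of 24 members, in c3 for 5 and in c1 for 7. Over all 1467 genes the shares were 42.7% in c5, 37.8% in c3 and 19.6% in c1. For 17 of the 24 members the highest mean led the next by less than 0.1. No uncertainty of these means was estimated, so these counts are a description only.

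In c4, every member above 10% of cells was found in more cells and at a lower level per expressing cell than in c1, c3 and c5 together. All 24 had a share higher by at least 10 percentage points, as had 95.4% of all 1467 genes, so this was general and not a trait of splicing genes. The median difference in share was 20.8 points over the members and 23.7 points over all genes. The value per expressing cell was lower in all 24, and in 1368 of all 1467 genes, so this too was general. Its median difference was -1.45 over the members, against -1.35 over all genes. When both were combined in the mean over all cells, no member differed by 0.25 in either direction, beside 12.3% of all genes that were higher and 9.41% that were lower. The median difference of the mean was 0.04 over the members and 0.03 over all genes. A share taken over all cells includes c4, and 16 of the 24 reached 10% when c4 was left out of it. With this filter all 16 had a c4 share higher by at least 10 points, as had 95.2% of 1180 genes.

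The c4 shares of the members were also set out by how common the members were elsewhere. The bound of 8% used here was not among the planned settings. Of 18 members found in at least 10% of c1, c3 and c5 cells, all 18 had a larger share in c4, with a median of 38.4% in c4 and 14.9% in c1, c3 and c5. Of 13 members at 8% to under 10%, all 13 did, with medians of 22.0% and 9.02%. Below 8% this no longer held, since of 26 members at 5% to under 8% only 11 had a larger share in c4, with medians of 6.10% and 6.19%, and of 34 rarer members only 6 did, with medians of 1.83% and 3.35%. Over all genes the percent with a larger share in c4 was also highest for common genes and also fell below 8%. It was 99.0% at 10% and above, 91.8% at 8% to under 10%, 55.6% at 5% to under 8% and 64.0% below that. The gap between 11 of 26 members and 55.6% of all genes rests on few genes and was not tested. At 5% to under 8% the median share in c1, c3 and c5 was 6.19% for members and for all genes. Below 5% it was 3.35% for members and 1.80% for all genes, so they were not matched for detection there. All members at 8% and above thus had the larger share in c4, and most members below 8% did not. Among genes under 10% of all cells, 45 of 67 members had a lower mean over all cells in c4. So had 27 of 43 proteasome subunits and 53 of 94 other splicing genes, against 6258 of all 18447 genes. Many of the 18447 genes were found in fewer cells than these members, so this comparison is not matched for detection either. The median differences in share were -0.72 points for these members, 0.43 for proteasome subunits, -0.0094 for other splicing genes and 0.70 for all genes.

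The level per expressing cell showed the reverse side of this. In the top range the median over members was 1.06 in c4 and 2.53 in c1, c3 and c5, which are corrected counts of 1.89 and 11.5. At 5% to under 8% the medians were 1.98 and 2.37, and 18 of the 22 members with at least 3 expressing cells on each side were lower in c4. Over all genes in this range 508 of 1227 were lower in c4, with medians of 2.25 in c4 and 2.05 in c1, c3 and c5, so that here the members' median differed in the direction opposite to that of all genes. This was not particular to members. Among genes under 10% of all cells, this level was lower in c4 in 25 of 36 members, 21 of 27 proteasome subunits and 30 of 52 other splicing genes. Over all genes it was lower in 1544 of 7986. The median differences were -0.39, -0.90, -0.21 and 0.48, without matching for detection. The clearest case was sf3b6, found in 23 c4 cells (28.0%), each of which had a corrected count of exactly 1, with a mean of 0.69 per expressing cell in c4 and 3.06 in c1, c3 and c5. Its mean over all cells, 0.19 ± 0.31 in c4 and 0.35 ± 1.06 in c1, c3 and c5, had the lowest difference of the 24 members, -0.16. For lsm3 and lsm4, subunits of the LSm ring on U6 that were singled out after their values were seen, at least 83.7% of 19 and 80.7% of 16 expressing c4 cells had a corrected count of 1. A corrected count can be above 0 in a cell with no read of the gene, because the model scales each cell to the common depth, so a c4 share cannot be read as the share of cells with the transcript. The part of this in the c4 values was not tested.

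The members with the highest c4 mean differences were hnrnpm at 0.17, srsf2a (ENSDARG00000057484), an SR protein found in nuclear speckles, at 0.15, hnrnpaba at 0.15, sf3b2 at 0.12 and srsf5a at 0.11. At the other end, after sf3b6, stood lsm12b at -0.11, hnrnpr at -0.04, and snrpb and hnrnpa0b, both at -0.02. All lay within the threshold. Of these, hnrnpm, srsf2a, sf3b6 and snrpb reached 10% of cells only with c4 counted, so their place in this ranking depended on c4. Under 10% of cells, where 0.96% of all genes were higher by the threshold, 1 member passed it, snrnp200 (ENSDARG00000077536), the helicase that unwinds U4 from U6, with a mean of 0.42 ± 0.92 in c4 and 0.16 ± 0.75 in c1, c3 and c5, and a difference of 0.25. Its level per expressing cell was 2.14 in c4 and 2.53 in c1, c3 and c5, nearer to each other than in most common members.

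**Figure D4:**
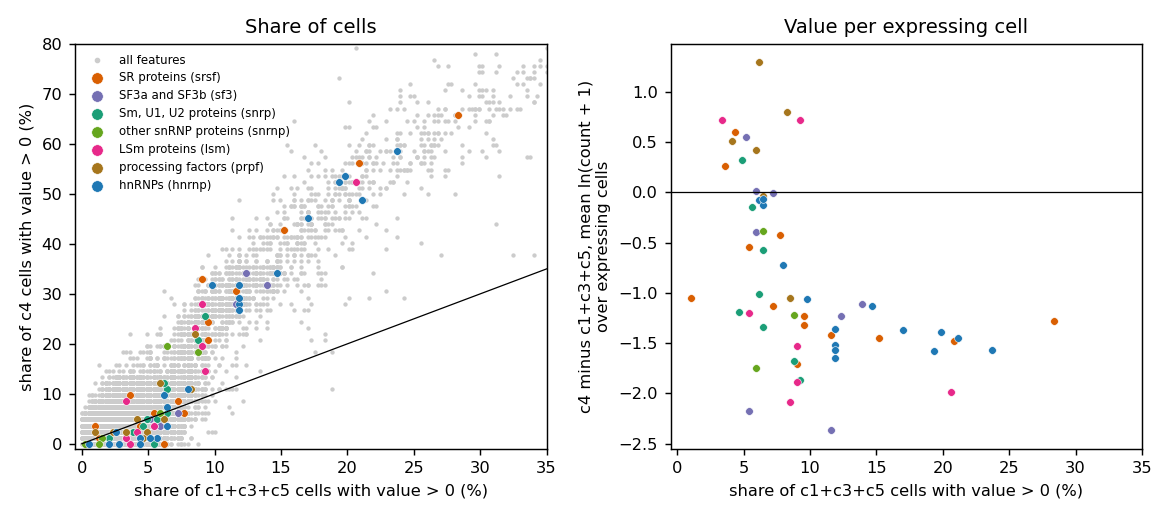
Cluster c4 against c1, c3 and c5 together. In the left panel the x axis is the share of c1, c3 and c5 cells with a value above 0, the y axis is the share of c4 cells, both in percent, grey points are all genes within the plotted range, coloured points are members by class and the line marks equal shares; in the right panel the y axis is the difference of the mean natural log of the corrected count plus 1 over expressing cells, for members with at least 3 expressing cells on each side. Members at 8% and above lie over the line of equal shares in the left panel, and all 18 members at 10% and above lie under 0 in the right panel.

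In c2, the members above 10% of cells were lower than in c1, c3 and c5 together, with a median close to that of all genes above 10%. Of 24 members, 23 had a mean difference below 0, as had 1292 of all 1467 genes. The median was -0.17 over the members, against -0.18 over all genes. By the threshold of 0.25, 3 members were lower and none was higher, beside 32.9% of all genes that were lower and 3.07% that were higher. Among genes in the members' range of share, 18.7% were lower, so the members' count stayed below the background. Of the 67 members under 10% of cells, 57 had a difference below 0, against 9816 of all 18447 genes under 10%, and the medians were -0.055 over these members and -0.0014 over these genes. Proteasome subunits under 10% stood much the same, with 36 of 43 below 0 and a median of -0.059. Of the other splicing genes described further below, 72 of 94 were below 0, with a median of -0.026. Below 10% of cells the members thus stood lower in c2 than genes at large, but this was not particular to them. The members and genes at large were not matched for detection here. Among genes in under 5% of c1, c3 and c5 cells, the median share there was 3.35% over members and 1.80% over all genes. The comparison is a description without a test.

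The 3 lower members were hnrnpa0b, srsf5a and hnrnpaba. The largest difference was that of hnrnpa0b (ENSDARG00000036162), at -0.41. It was found in 48.8% of c4 cells, 7.95% of c2 (4.42 to 13.0%), 25.0% of c5, 20.5% of c3 and 20.1% of c1, and its mean was 0.12 ± 0.51 in c2 and 0.52 ± 1.14 in c1, c3 and c5, where its share was 21.1% (17.2 to 25.5%). Both the share and the level per expressing cell (1.49 in c2 and 2.48 in c1, c3 and c5) were lower in c2. Overlap of intervals was not counted over all genes for c2. For srsf5a the shares of 27.8% in c2 and 28.4% in c1, c3 and c5 (23.9 to 33.1%) were alike, and the difference of -0.31 lay in the level per expressing cell, which was 1.46 in c2 and 2.53 in c1, c3 and c5. For hnrnpaba the difference was -0.26, with shares of 15.9% in c2 (10.8 to 22.2%) and 19.8% in c1, c3 and c5 (16.0 to 24.2%). The next were sf3b6 at -0.23 and srsf3b at -0.22. The 5 highest differences were those of hnrnpm at 0.01, sf3b2 at -0.01, and sf3b1, lsm7 and srsf11, each at -0.07.

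In the reference gene order of zebrafish (RefSeq, assembly GRCz12tu, used for gene order only), hnrnpa0b and hnrnpa0l are neighbours. In c2 they were found in 7.95% and 26.7% of cells, while in c1, c3 and c5 they were found in 21.1% and 23.7%. The difference of the mean over all cells between c2 and those clusters was -0.41 for hnrnpa0b and -0.22 for hnrnpa0l. For hnrnpa0l the share was not lower in c2, while the level per expressing cell was 1.64 in c2 and 2.76 in c1, c3 and c5. Other members that are neighbours there were hnrnpd and hnrnpdl, in 102 and 26 cells, and srsf7a and hnrnpl, in 115 and 37 cells.

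Many zebrafish genes exist in 2 copies from an ancient genome duplication, named a and b. Among the members there were 13 such pairs, 6 of them SR protein genes, and in 10 one copy was found in at least 2 times as many cells as the other. In these 10 the same copy was ahead in each of the 5 clusters. The copy named b was ahead in 9 pairs and the copy named a in 4. The less detected copies of srsf7, lsm12, srsf3 and hnrnpa1 were chosen for naming after their values were seen.

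Unequal pairs were led by srsf7a and srsf7b, with 115 and 11 cells, a ratio of 10.5, and by lsm12b and lsm12a, with 162 and 16 cells, a ratio of 10.1. Next was srsf3b with 162 cells against 26 for srsf3a. In c1, c3 and c5 the shares were 15.2% for srsf7a and 1.29% for srsf7b, 20.6% for lsm12b and 3.61% for lsm12a, and 20.9% for srsf3b and 6.19% for srsf3a. Because c4 widened such gaps (srsf3a and lsm12a were at 0 there, with 46 cells for srsf3b and 43 for lsm12b), the count was repeated without c4 and c2, and it was again 10 pairs. Milder gaps were present for srsf5a and srsf5b (213 and 66 cells), hnrnpub and hnrnpua (129 and 41) and hnrnpa0b and hnrnpa0a (136 and 79).

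Equal pairs were hnrnpaba and hnrnpabb, with 149 and 147 cells, and srsf1b and srsf1a, with 47 and 46. Their shares in c1, c3 and c5 were 19.8% and 19.3% for the first pair and 7.73% and 7.22% for the second. In hnrnpa1 the gap differed by cluster, since hnrnpa1b and hnrnpa1a were found in 26 and 1 cells of c4, 11 and 1 of c2, 9 and 8 of c5, 15 and 3 of c3, and 22 and 9 of c1. The 2 copies were thus level in c5 alone among these clusters, on 9 and 8 cells. Reads that matched several genes were left out by the authors' counting, so near-identical copies can lose reads unequally, and the ratios are those of detection.

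**Figure D5:**
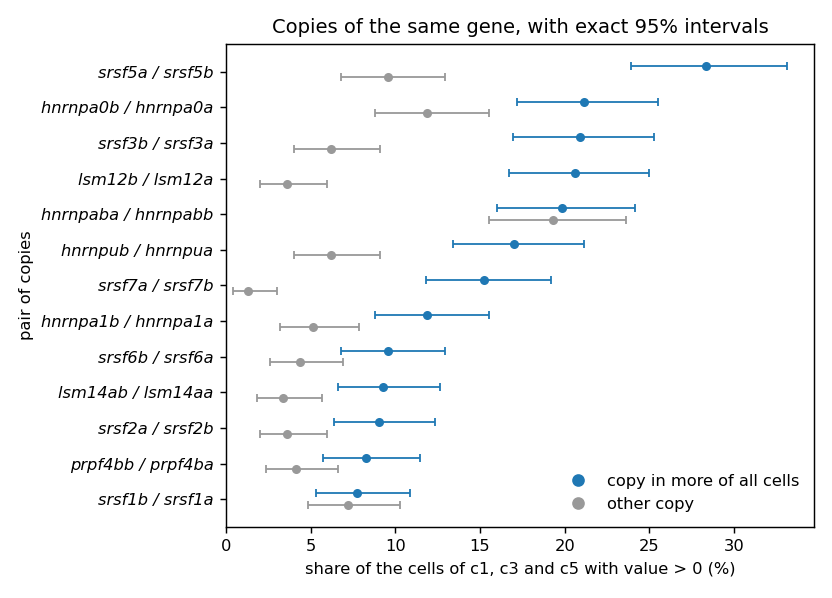
Detection of the 13 pairs of copies in c1, c3 and c5. Each row is a pair, the x axis is the share of the 388 cells with a value above 0 in percent, blue points are the copy found in more of all cells, grey points the other copy, and bars are exact 95% intervals. The srsf7 pair has shares of 15.2% and 1.29%, and the points of the hnrnpab and srsf1 pairs lie side by side.

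Other genes of the splicing pathway, from a list of 136 spliceosome components and splicing regulators that the name rule does not match, were looked at in the same way. Of these, 132 were in the table and 38 were found in at least 10% of cells. Between c5 and c3, 2 of 38 were higher, sf1, the branch point binding protein, and sart1, a component of the tri-snRNP, both with a difference of 0.30, and 1 was lower, srrm2, a large SR-related protein, at -0.29. These counts were under the background of 14.8% and 13.4%. Among the 34 of these genes in the members' range of share, 2 were higher and 1 was lower, beside 11.5% and 8.36% of all genes in that range. In c2, 4 were lower, the helicase ddx5 at -0.62, khdrbs1a at -0.38, bcas2 at -0.34 and ptbp3 at -0.26, and 1 was higher, smndc1 at 0.26. Of all 1467 genes, 32.9% were lower and 3.07% were higher in c2.

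The gene smndc1, which encodes a protein that takes part in spliceosome assembly, stood apart in c4. It was found in 90.2% of c4 cells, 43.8% of c2, 19.4% of c5, 39.3% of c3 and 34.0% of c1, and its c4 mean difference was 1.82, beyond any member. Besides it only acin1a, at 0.39, was higher in c4 among the 38, and none was lower. Proteasome subunits had 0 of 10 past the threshold between c5 and c3 and in c4, and 2 of 10 lower in c2. Of 78 ribosomal protein genes, 5 were higher and 27 lower in c5 than in c3, 1 was higher and 45 were lower in c4, and none was higher and 63 were lower in c2, with median differences of -0.17, -0.31 and -0.50. Over all 1467 genes, 14.8% were higher and 13.4% lower in c5 than in c3. In c4 these were 12.3% and 9.41%, and in c2 3.07% and 32.9%.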

How the data were processed

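Single cells were sorted into 96-well plates, and transcripts carried molecular identifiers. The submitters' processing notes name bcl2fastq 2.20, STAR and the build GRCz11. By the methods, the authors filtered cells, removed mitochondrial and spike-in features, corrected counts with SCTransform and clustered the cells. For each gene and cluster the authors deposited cell numbers as counts and, as a percent, how many cells expressed the gene. For the expressing cells they deposited the mean with its SD on a natural log scale, taken of the corrected count plus 1. SCTransform models each count on cell depth, and a corrected count can be above 0 where none was observed. Depth per cell was not used here. A second deposited table holds the authors' comparison of c5 with c3 (fold changes and p-values) and was not used.

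Numbers of expressing cells were taken as percent times cells, and means and SDs over all cells were rebuilt with the other cells at 0, using Python 3.11.15, pandas 2.3.3, numpy 2.4.6 and scipy 1.17.1. The rebuilding was tested on simulated data. Genes in at least 10% of all cells entered the comparisons, and differences of 0.25 in the mean or 10 percentage points in the share were counted. The alternatives were filters of 5% and 20% or none, a threshold of 0.5, shares, expressing cells only, unweighted means, symbols in either case, and 10% of cells without c4, which was added after the values were seen. All 91 identifiers were found in the reference names, 72 with the same symbol. No sequences and no coordinates are given, since no genome of this build was used.

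Genes named are the 10 with the largest share, the 5 highest and 5 lowest in each comparison, the leader of each class, and pairs of copies that were both in at least 5% of cells. Other names were added once values had been seen. The values of 1 member that this rule names are not reported here. The members and lists (other splicing genes, proteasome, ribosomal protein and cell type markers) were chosen with earlier results of these data known.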

Additional observations from a re-analysis of the deposited data

How the results depend on the processing

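Of 66 alternative settings over the counts, medians and shares, 40 left the value within the range set for no change, 25 moved it and 1 reversed its direction. The count of 4 members past the threshold between c5 and c3 became 1 with a filter of 20% of cells (higher, beside 21.9% of all genes), 0 at a threshold of 0.5 (5.93% higher and 4.36% lower) and 18 over expressing cells only (15 higher and 3 lower, beside 37.8% and 22.7% of all genes), and by shares it became 1, which was lower in c5 (beside 13.0% of all genes), so that the balance of directions turned. The count of 0 in c4 became 1, higher, with a filter of 5% (beside 10.8% of all genes) or with none (beside 1.80%). By shares it became 24 (all higher, beside 95.4% of all genes) and over expressing cells 24 (all lower, beside 91.5% of all genes). For the share count of 24 in c4, a filter of 20% left 7 of 7 members, beside 96.0% of all genes. The count of 3 in c2 became 1 by shares (lower, beside 4.70% of all genes), 0 at 0.5 (11.7% lower) and 20 over expressing cells (19 lower and 1 higher, beside 72.9% and 10.2%). Over expressing cells the median differences were 0.31 for c5 against c3, -1.45 for c4 and -0.59 for c2, and with no filter that of c2 was -0.068. Members as a percent of the genes found, limited to genes in at least 10% of cells, were 1.26% in c4, 0.835% in c2, 0.977% in c5, 0.941% in c3 and 1.02% in c1, and by summed means 0.753%, 0.732%, 1.02%, 0.906% and 1.04% in the same order. The cause was not tested. Leaving out a replicate could not be done, since the plates are pooled. No paired analysis was possible because the deposited values carry no plate or replicate number. With 72 to 194 cells per cluster, each of the 45 members in under 5% of cells rests on 32 or fewer cells in all, and its intervals are wide.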
